A study of Danio rerio with 170 samples.

Results

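PFAS 11 is perfluorohexane sulfonamide, a short, fully fluorinated carbon chain that carries a sulfonamide group. The comparison holds the 4 libraries labelled PFAS-11 and the 6 labelled Control-A of Exposure Round 1, chosen by their labels alone, which is 10 of the 70 libraries of 48 hpf embryos (48 hours post fertilization) in Exposure Rounds 1 and 2. Of the 32520 genes in the count table, 21928 had enough counts to be tested, and all of them entered the comparison.

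Whole zebrafish embryos of the Tropical 5D wild-type line were held from 6 to 48 hpf in 28 µM PFAS 11 with 1% DMSO, and the controls in 1% DMSO alone. The study asked which genes change before malformations are scored later in larval life, at a concentration chosen to affect most larvae. Each library was made from the RNA of 10 pooled whole embryos, so differences between embryos cannot be seen, and in such bulk RNA fewer cells of a type and less RNA per cell cannot be told apart. The PFAS 11 libraries came from 4 of the 6 collection days and the controls from all 6. The groups PFAS 10 (8 µM perfluorooctane sulfonamide, a sulfonamide with a longer chain) and PFAS 13 (25 µM of a perfluorinated decane diol with a hydroxyl group at each end), with 4 libraries each and the same 1% DMSO and times, serve below only to show where PFAS 11 differs.

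At this stage the zebrafish embryo is still building its nervous system, eye and muscle. Dividing progenitors in the neural tube and retina signal to each other through Delta ligands and Notch receptors, which switch on her and hes genes and hold neighbouring cells back from becoming neurons, while cells that leave the cycle pass through a series of proneural factors before they make synapses. In the same hours the lens fibres fill with crystallins, cone precursors begin to make the light-signalling proteins of the outer segment, and the fast muscle of the trunk, already contracting, adds sarcomere and energy proteins. Cells that are short of amino acids, or whose mitochondria or protein folding are disturbed, slow translation and raise the transcription factors ATF4, ATF3, CEBPB and DDIT3, a programme called the integrated stress response.

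Total counts ran from 15960915 to 26348036 in the PFAS 11 libraries (median 24512380) and from 19538366 to 26415590 in the controls (median 24458443). A single gene without a symbol took 24.01% to 26.5% of the counts of every one of these 10 libraries. Correlations of log2 levels between replicates ran from 0.973 to 0.9796 in the exposed group and from 0.9699 to 0.9832 in the controls. The first principal component, with 49.6% of the variance of 1000 genes, placed all 4 PFAS 11 libraries between 15.36 and 21.81 and all 6 controls between -19.94 and -9.66. On the second component, with 13.5%, control replicate 5 stood apart at 21.94 against -7.58 to 3.54 in the other 9 libraries. That library was collected on a day that has no PFAS 11 library. The results below that rest on it are given also without it.

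Levels are given as CPM, the counts scaled to the library size and by the TMM method. Differences are log2 fold changes of PFAS 11 over control with their standard error, from 1 fit of edgeR's quasi-likelihood test, and a gene is called when its Benjamini-Hochberg adjusted p is under 0.05. Gene names were matched to the identifiers of the count table, and those in capitals follow the human counterpart. Where several zebrafish genes share a name, the identifier or the value of each copy is given.

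PFAS 11 changed 3091 genes, 14.1% of those tested. Of these, 1443 rose (6.58% of all tested) and 1648 fell (7.52%), with a median size of 0.61 on the log2 scale. In 634 the change was over 2-fold, and of these large changes 228 were rises and 406 were falls. The 4 exposed and 6 control libraries did not overlap in 2100 of the called genes, against 2545 genes, 11.6%, of all those tested. Without any single library the count of calls ran from 2488 to 2980, lowest without PFAS 11 replicate 2, and was 2801 without control replicate 5. Where a list below is said to hold no rise or no fall, its members in that direction numbered 0 to 3 at an unadjusted p under 0.05 and 0 to 1 by DESeq2. The gene lists hold 1738 genes, of which 1628 were tested and 596 were called. The plot of shares called per list sets them side by side.

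**Figure D1:**
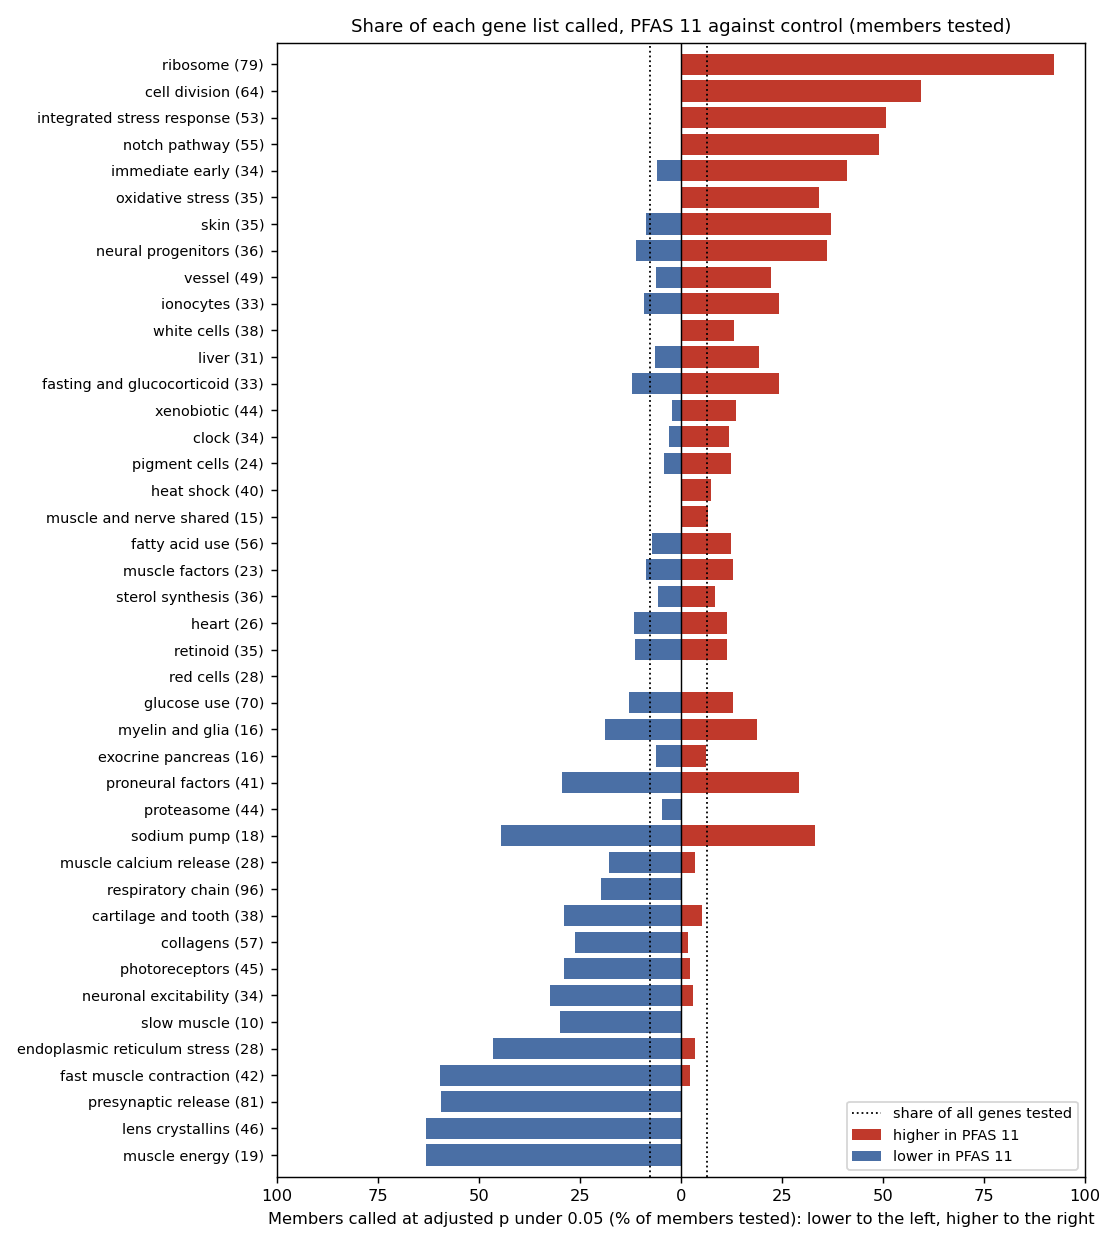
Share of the tested members of each gene list plotted called higher (to the right) or lower (to the left) in PFAS 11 than in control, in percent, with the number tested in brackets. Dotted lines mark the shares of all genes tested, 6.58% higher and 7.52% lower; the ribosome and cell division lists reach furthest to the right, and the muscle energy and lens crystallin lists furthest to the left.

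Among the 15 largest falls were genes known from muscle and genes known from the eye. Among called genes with a symbol, a mean log2 CPM over 1 and no overlap between groups, igfn1.3 showed the largest fall. This gene encodes an immunoglobulin-like protein of the muscle Z disc. Its level was 3.49, 1.31, 3.97 and 5.06 CPM in the 4 exposed libraries against 55.3 to 80.6 (median 62.6) in the 6 controls, a log2 fold change of -4.28 ± 0.23 (adjusted p = 5.26e-25). GNB3, a transducin subunit that passes the light signal on in cones, came next at 3.96, 2.24, 5.34 and 3.81 CPM against 23.5 to 33 (median 27.9), or -2.88 ± 0.24 (adjusted p = 1.37e-15). In both genes even the highest exposed library stood far below the lowest control. The other falls among the 15 largest included further genes of the retina, namely rpgrip1 (-2.72), which anchors a ciliary protein of photoreceptors, rs1a (-2.34), the retinoschisin that holds retinal layers together, and RCVRN (ENSDARG00000019902, -2.15), recoverin, a calcium sensor of photoreceptors. GNG13 (-2.06), a G protein subunit of retinal bipolar and sensory cells, and grin2ab (-2.08), an NMDA receptor subunit, also fell. Muscle and connective tissue were represented by AMPD1 (-2.6), the muscle AMP deaminase, by myhb (-2.27), a myosin heavy chain, and by tnxba (-2.71), a tenascin of tendon and other connective tissue. The lens crystallin crygm2d11 (-2.27), prr35 (-2.55) and the unnamed genes si:dkey-183i3.5 (-2.47), si:dkey-205h13.2 (-2.36) and si:dkey-57a22.15 (-2.1) completed the 15.

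The 15 largest rises held stress and immediate early factors, transporters and a regulator of growth factors. The unnamed gene si:dkey-7c18.24 led them with 24.4, 11.6, 10.4 and 13.8 CPM in the exposed libraries against 0.314 to 2.72 (median 1.39) in the controls, a log2 fold change of 3.37 ± 0.38 (adjusted p = 1.11e-10). The chromatin gene cbx7a, a Polycomb subunit, stood at 15.5, 22.5, 43 and 19.7 CPM against 0.928 to 5.49 (median 2.87), or 3.03 ± 0.35 (adjusted p = 2.13e-10). Both copies of SLC16A9, a carrier of the monocarboxylate transporter family that is known in humans to carry carnitine, rose. The copy ENSDARG00000013926 reached 16.2, 13, 13.9 and 12.8 CPM against 1.3 to 2.31 (median 1.64), or 3.0 ± 0.26, and the copy ENSDARG00000104687 rose by 2.0 ± 0.19. IGFBP1, a secreted binding protein that limits insulin-like growth factors in fasting and low oxygen, stood at 59.4, 58.8, 104 and 76.6 CPM against 14.3 to 29.4 (median 18.8), or 1.9 ± 0.20 (adjusted p = 1.18e-11). No exposed library overlapped a control in these genes, which was a condition of their selection and not a finding. The AP-1 subunits FOSL1 (2.41) and FOS (2.1) and the stress factor ATF3 (2.07) were among the 15, as were SOCS3 (ENSDARG00000025428, 1.88), which damps cytokine signals, ARRDC3 (ENSDARG00000036028, 1.8), an arrestin-like adaptor, and MKNK2 (ENSDARG00000015164, 1.77), a kinase of the translation factor eIF4E. The list also held the mitochondrial uncoupling protein UCP1 (1.71), the retinol carrier rbp4l (1.9), the sarcomere protein tcap (2.52) and zgc:162608 (2.47).

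**Figure D2:**
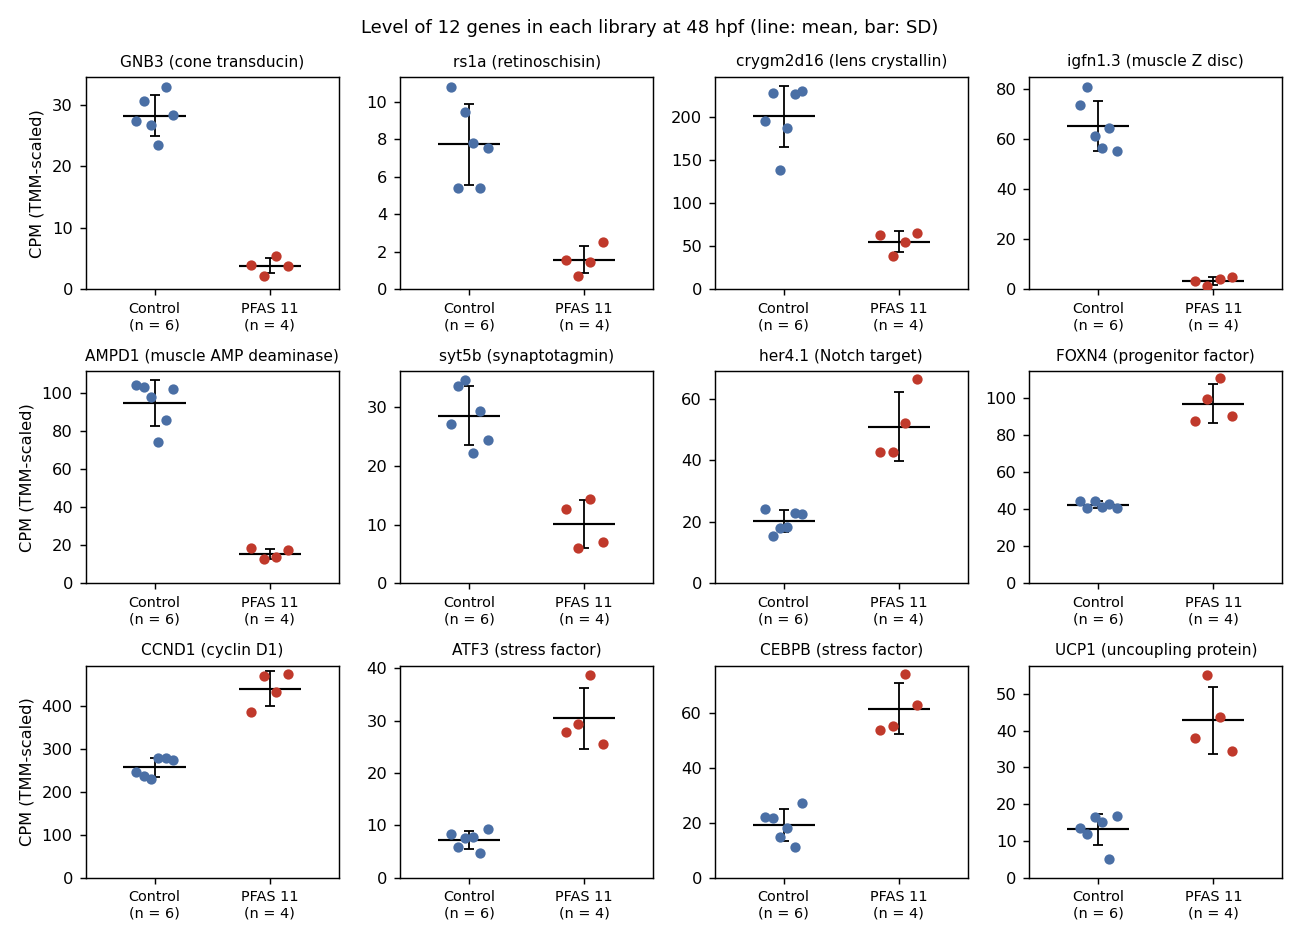
Level of 12 genes in each library, in TMM-scaled CPM on linear axes that start at 0; points are libraries, lines the mean and bars the SD of the 6 controls (blue) and the 4 PFAS 11 libraries (red). In all 12 genes the exposed libraries lie wholly below or wholly above the controls, and in UCP1 control replicate 5 lies below the other controls at 5.17 CPM.

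In the eye, genes of the photoreceptors and the lens fell. Of 45 photoreceptor genes tested, 13 fell and 1 rose, and the median log2 fold change of the list was -0.55, against -0.006 over all genes. The transcription factor crx, which drives photoreceptor genes, stood at 51.4, 25.5, 37.8 and 30.1 CPM against 66.1 to 79.4 (median 78.1) in the controls, or -1.07 ± 0.12 (adjusted p = 2.32e-11). The cone transducin subunit GNGT2 (ENSDARG00000103543) held 10 counts over all 4 exposed libraries and 285 over the 6 controls. Among the rod and cone genes, the short-wave cone opsin OPN1SW fell by -1.84 ± 0.60, though it was not called without PFAS 11 replicate 1, 2 or 4 or control replicate 4. The arrestin sagb fell by -2.66 ± 0.45 and the thyroid hormone receptor THRB, which directs cone fate, by -0.45 ± 0.11. Not called were both genes named PDE6B, a rod phosphodiesterase (-1.82 ± 0.93 for ENSDARG00000000380 and 0.22 ± 0.70 for ENSDARG00000011671), and the cone transducin GNAT2 (-0.80 ± 0.65), at 0.131 to 1.17 CPM in the exposed libraries and 0.421 to 1.44 in the controls. The member that rose, rbp4l, is a retinol carrier and stood at 36, 69.3, 54.4 and 78.5 CPM against 13.7 to 18.4 (median 16). Averaged over the list, the exposed libraries lay -0.53, -0.94, -0.61 and -0.65 log2 units from the control mean, and the controls spread from -0.12 to 0.13.

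In the lens, crystallin genes fell. Of 46 crystallin genes tested, 29 fell and none rose, with a median of -0.56. The fall was carried by the gamma M2 crystallins, near-identical genes among which the counting can split reads, so that single copies are uncertain. The copy crygm2d16 stood at 63.1, 38.1, 55 and 65.4 CPM against 139 to 230 (median 211), or -1.86 ± 0.20 (adjusted p = 2.66e-11), crygm2d18 fell by -1.05 ± 0.11 and crygm2d11 by -2.27 ± 0.35. The beta crystallins that passed, CRYBB1 (-0.28 ± 0.07), CRYBA4 (-0.27 ± 0.09) and cryba1b (-0.35 ± 0.11) among them, fell less, and none of these 3 was called without PFAS 11 replicate 2 (adjusted p from 0.121 to 0.294). CRYBA4 also lost its call without PFAS 11 replicate 1 or 4 or control replicate 1, 2 or 5, and cryba1b without PFAS 11 replicate 4 or control replicate 2. The mean of the list lay -0.30, -1.04, -0.57 and -0.50 log2 units from control in PFAS 11 replicates 1 to 4, so that replicate 2 was the lowest, while the controls spread from -0.11 to 0.18. Among retinoid genes 4 rose and 4 fell of 35 tested, with 2 rises without PFAS 11 replicate 3. The falls were RPE65 (ENSDARG00000007480, -1.14 ± 0.31) and RDH8 (ENSDARG00000028048, -0.73 ± 0.18), enzymes of the visual cycle, and the carriers RBP4 (-0.52 ± 0.11) and RBP2 (ENSDARG00000093774, -1.23 ± 0.27). The rises were the 3 retinoic acid hydroxylases CYP26A1 (0.42 ± 0.14), CYP26B1 (0.26 ± 0.07) and CYP26C1 (0.76 ± 0.12) and the binding protein CRABP2 (ENSDARG00000073978, 0.39 ± 0.10). CYP26A1 was not called without PFAS 11 replicate 3 or 4 or control replicate 1, 2 or 3, and CYP26B1 not without PFAS 11 replicate 3.

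Many genes of transmitter release fell. Of 81 presynaptic genes tested, 48 fell and none rose, with a median of -0.56. The vesicle glycoprotein SV2A stood at 69.9, 55.3, 53.5 and 61.3 CPM against 99.1 to 123 (median 112), or -0.89 ± 0.09 (adjusted p = 3.26e-13). The calcium sensor SYT1, which triggers release, stood at 90, 75.5, 84.1 and 88.3 CPM against 143 to 168 (median 147), or -0.82 ± 0.08. Exposed and control libraries did not overlap in either gene.

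By role, 13 of 21 SNARE proteins and partners, 17 of 26 vesicle proteins and calcium sensors, 11 of 15 active zone scaffold genes and 7 of 19 genes of transmitter synthesis and loading fell. The synaptotagmin syt5b, a relative of SYT1, fell by -1.5 ± 0.18, the synaptic vesicle protein sypb by -0.93 ± 0.11, and the scaffold genes PPFIA3 and BSN (ENSDARG00000079161) by -0.78 ± 0.08 and -0.69 ± 0.09. In transmitter synthesis, the GABA enzymes GAD1 (ENSDARG00000027419) and GAD2 fell by -0.62 ± 0.13 and -0.55 ± 0.09, the vesicular GABA and glycine carrier SLC32A1 by -0.56 ± 0.07 and the glycine carrier SLC6A5 by -0.39 ± 0.08. The 7 falls of this role include genes not named here. CHAT, TH and TPH2, which serve other transmitters, were not called, with values of -0.28 ± 0.14, -0.42 ± 0.70 and -0.01 ± 0.46. The standard errors of TH and TPH2 leave room for a change of either sign. The mean of the list lay -0.52, -0.61, -0.46 and -0.62 from control in the 4 exposed libraries and -0.07 to 0.04 in the controls.

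Of 34 genes of neuronal excitability and cytoskeleton, 11 fell and 1 rose, with a median of -0.54. The RNA-binding protein ELAVL4, a marker of maturing neurons, stood at 682, 542, 626 and 647 CPM against 1060 to 1310 (median 1170), or -0.90 ± 0.07 (adjusted p = 1.03e-16). The growth cone proteins gap43 and STMN2 (ENSDARG00000033234) fell by -0.61 ± 0.07 and -0.64 ± 0.07, the calcium channel CACNA1A (ENSDARG00000006923) by -0.64 ± 0.08 and the tubulin tubb5 by -0.67 ± 0.09. The rise was that of ELAVL3, a pan-neuronal marker that starts earlier, at 0.17 ± 0.05 (adjusted p = 0.0145), where the groups overlapped, and it was not called without PFAS 11 replicate 1 (adjusted p = 0.119) or in the 2 groups alone (0.0734). The other 22 genes of the list did not pass the test.

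Notch signalling genes rose while these neuronal genes fell. Of 55 tested, 27 rose and none fell, with a median of 0.49. Among the 9 ligands 5 rose. The 2 delta genes that the files name DLL1 stood at 330, 355, 322 and 381 CPM against 145 to 186 (median 161) for ENSDARG00000010791, or 1.09 ± 0.07 (adjusted p = 9.15e-20), and at 54.6, 59.5, 55.7 and 67.2 CPM against 24.6 to 33.6 (median 26.5) for ENSDARG00000020219, or 1.12 ± 0.11. The ligands dlb, dlc and jag1a rose by 0.84 ± 0.12, 0.69 ± 0.19 and 0.87 ± 0.14. The vessel ligand dll4, at 0.38 ± 0.16, and both jag2 genes were not called.

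Of 21 receptors and modifiers 8 rose. Both NOTCH1 genes (0.93 ± 0.10 and 0.83 ± 0.11), NOTCH3 (0.79 ± 0.08) and LFNG (0.89 ± 0.08), the fringe enzyme that tunes the receptor, were among them, whereas notch2 had a value of 0.03 ± 0.10. The feedback inhibitors NRARP rose in both copies, by 0.84 ± 0.13 and 0.72 ± 0.12. Of 25 her and hes genes, a family that includes direct targets of the receptor, 14 rose. The target her4.1 stood at 42.7, 42.7, 52.1 and 66.4 CPM against 15.4 to 24.3 (median 20.5), or 1.32 ± 0.13 (adjusted p = 3.55e-13), and her2 and her12 rose by 1.2 ± 0.19 and 0.86 ± 0.15. The her4 and her15 copies lie in clusters of near-identical genes and are uncertain one by one. Averaged over the pathway, the exposed libraries lay 0.44, 0.48, 0.61 and 0.56 above the control mean, outside the controls' -0.08 to 0.04.

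The proneural factors divided by sign. Of 41 tested, 12 rose and 12 fell. Among the rises, FOXN4, which acts in retinal and spinal progenitors, stood at 87.5, 99.8, 111 and 90.4 CPM against 40.5 to 44.8 (median 42.1), or 1.2 ± 0.09 (adjusted p = 5.67e-17). The factor ascl1a stood at 35.3, 34.6, 41.4 and 56.1 CPM against 16.2 to 21.6 (median 19.8), or 1.1 ± 0.12. Further rises were those of neurog1 (1.1 ± 0.15), ascl1b (0.80 ± 0.12), atoh7 (0.98 ± 0.17), which founds retinal ganglion cells, ATOH1 (ENSDARG00000055294, 1.66 ± 0.29) of the hindbrain and hair cells, OLIG3 (1.44 ± 0.17) and NEUROD4 (0.56 ± 0.09).

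Among the falls, POU4F2, a factor of retinal ganglion cells, stood at 24.4, 15.7, 27.6 and 24.4 CPM against 39.9 to 51 (median 46.1), or -1.0 ± 0.11 (adjusted p = 5.67e-11). NEUROD6, of maturing excitatory neurons, fell in both copies, by -1.84 ± 0.25 and -1.35 ± 0.20. NEUROD1 fell by -0.67 ± 0.09, the bipolar cell factor VSX1 by -0.72 ± 0.12, ISL1 by -0.50 ± 0.08 and ISL2 (ENSDARG00000053499) by -0.72 ± 0.16. The plot of called neural members shows the called Notch genes to the right of 0, the called proneural factors on both sides and the called presynaptic genes to the left. Since only called members are plotted, these sides follow from the counts above.

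**Figure D3:**
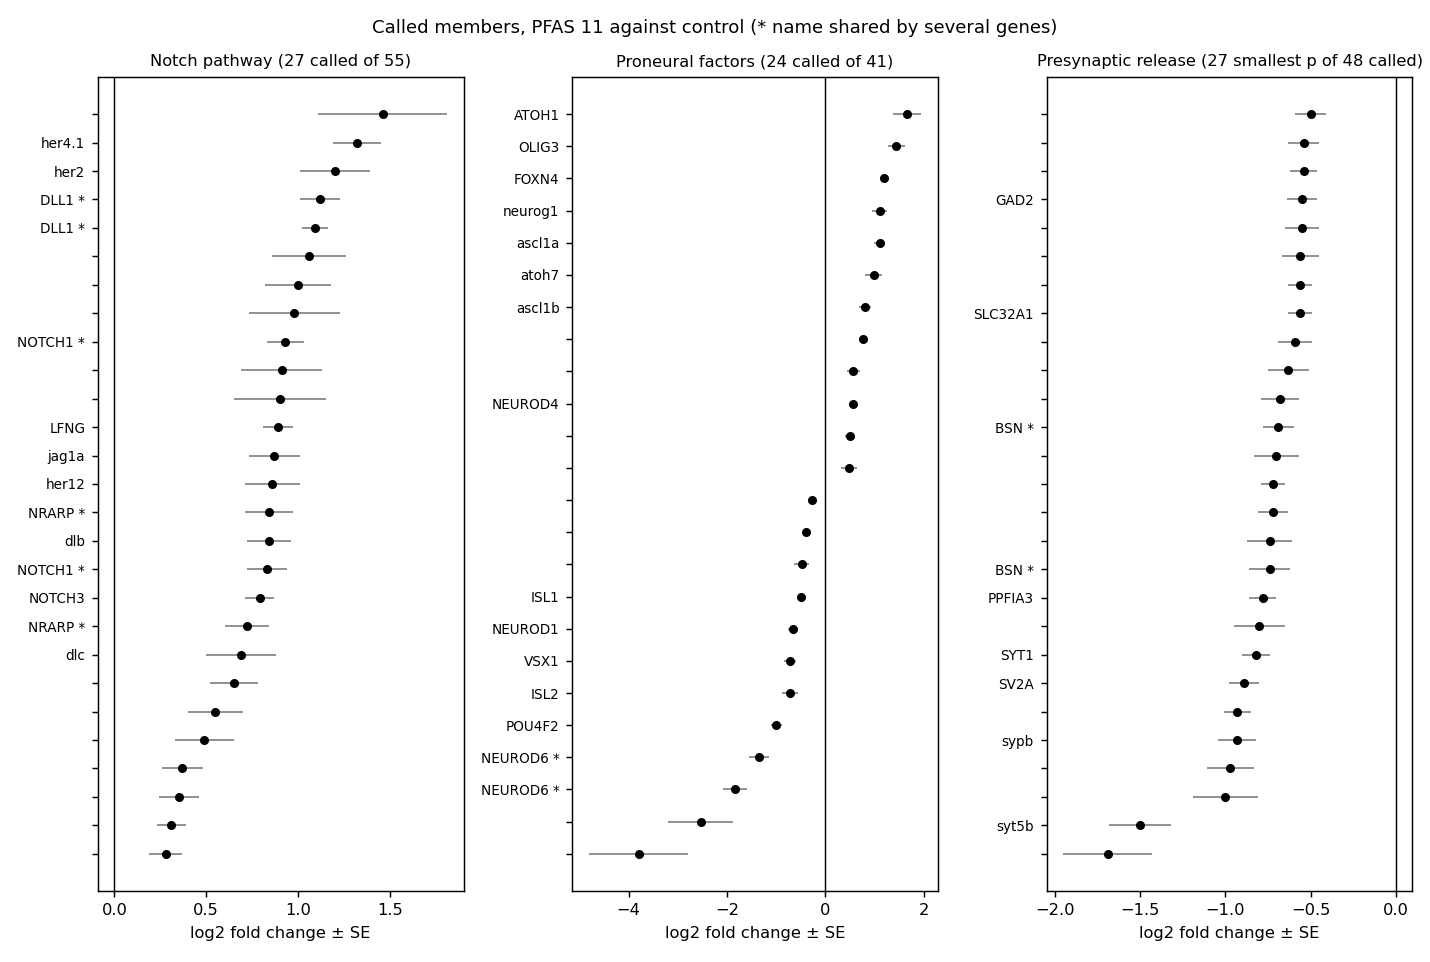
Log2 fold change, PFAS 11 over control, with the standard error, of the 27 called Notch pathway genes, the 24 called proneural factors and the 27 presynaptic genes with the smallest p of the 48 called; only genes named in the text are labelled. All plotted Notch genes lie above 0 and all plotted presynaptic genes below, while 12 proneural factors lie on each side. Over all members tested, called or not, 51 of 55 Notch genes and 12 of 81 presynaptic genes had a value above 0.

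Progenitor and cell cycle genes also rose. Of 36 neural progenitor genes 13 rose and 4 fell. SLC1A3 (ENSDARG00000104431), a glutamate carrier of radial glia, rose by 1.02 ± 0.09, SOX3 by 0.74 ± 0.07, sox19a by 0.68 ± 0.09 and GSX1 by 1.07 ± 0.16. The falls were those of both MSI2 copies (-0.49 ± 0.07 and -0.84 ± 0.15), of GJA1 (-0.42 ± 0.10) and of FABP7 (ENSDARG00000007697, -0.36 ± 0.10). SOX2 and PAX6, broad progenitor genes, were not called, at 0.15 ± 0.08 for SOX2 and -0.18 ± 0.07 and -0.04 ± 0.07 for the PAX6 copies. Of 64 genes of cell division 38 rose and none fell, with a median of 0.43. CCND1, the cyclin that carries cells out of G1, stood at 386, 470, 431 and 473 CPM against 229 to 279 (median 259), or 0.78 ± 0.06 (adjusted p = 5.27e-17). The rises covered 17 of 34 replication genes, such as RRM2 (ENSDARG00000078069, 0.95 ± 0.14), MCM5 (0.57 ± 0.09) and PCNA (0.44 ± 0.07), and 21 of 30 mitosis genes, such as NUSAP1 (0.64 ± 0.08), mki67 (0.48 ± 0.06) and TPX2 (0.48 ± 0.07). The list mean lay 0.20, 0.52, 0.41 and 0.33 above control in replicates 1 to 4, highest in replicate 2, and the controls spread from -0.04 to 0.06. The presynaptic and progenitor lists moved in opposite directions in the same 4 libraries, and whether the make-up of cells or the level per cell differed was not tested.

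**Figure D4:**
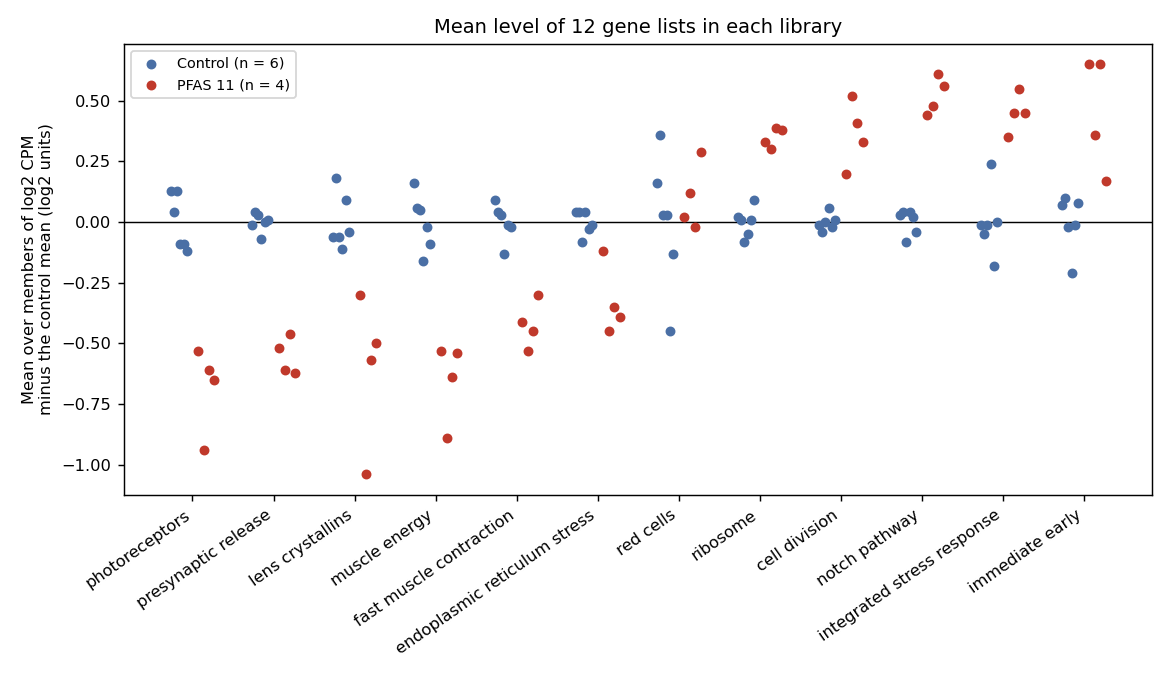
Mean over the members of 12 gene lists of the log2 CPM minus the control mean, in log2 units, for each of the 6 control (blue) and 4 PFAS 11 (red) libraries. The red cell list overlaps between groups, and the photoreceptor, synapse, lens and muscle lists lie below the controls, whereas the ribosome, cell division and Notch lists lie above them.

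In muscle, structural and energy genes of the fast fibres fell. Of 42 fast muscle genes 25 fell and 1 rose, with a median of -0.34. Of 25 thin and thick filament genes 18 fell. The myosin heavy chain myhz2, one of a group of near-identical copies, stood at 678, 530, 639 and 570 CPM against 1050 to 1250 (median 1170), or -0.94 ± 0.08 (adjusted p = 6.17e-16). ACTA1 (ENSDARG00000055618), skeletal actin, stood at 549, 447, 539 and 549 CPM against 1220 to 1660 (median 1360), or -1.43 ± 0.12, and the fast troponin genes TNNT3 (ENSDARG00000068457) and TNNI2 (ENSDARG00000029995) fell by -0.49 ± 0.05 and -1.28 ± 0.17. Other filament genes fell less, such as TTN (ENSDARG00000028213, -0.25 ± 0.06), the giant spring of the sarcomere, and NEB (-0.30 ± 0.06). The TTN copy ENSDARG00000000563 was not called, at -0.1 ± 0.06.

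The rise was that of tcap, a titin cap of the Z disc that binds the end of titin, at 6.13, 6.52, 16.8 and 9.86 CPM against 0.687 to 3.72 (median 1.49), or 2.52 ± 0.53 (adjusted p = 0.000188). It went up while 7 of the other Z disc genes, MYOZ1 (-0.94 ± 0.20) and actn3a (-0.33 ± 0.08) among them, went down. Energy genes of muscle fell in 12 of 19, with none rising and a median of -0.50. AMPD1, which removes AMP in working muscle, stood at 18.5, 12.8, 13.8 and 17.3 CPM against 74.1 to 104 (median 99.9), or -2.6 ± 0.12 (adjusted p = 6.22e-28). Myoglobin, mb, fell by -1.21 ± 0.15, the muscle mitochondrial creatine kinase CKMT2 (ENSDARG00000039929) by -0.67 ± 0.10, the ADP/ATP carrier SLC25A4 by -0.85 ± 0.07 and LDHA by -0.78 ± 0.09.

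Calcium handling changed in fewer genes. Of 28 tested 5 fell, or 3 without PFAS 11 replicate 3 or 4, led by CASQ1 (ENSDARG00000038716, -0.74 ± 0.07), the calcium store of the sarcoplasmic reticulum, and atp2a1l (-0.83 ± 0.14), a calcium pump, and JPH2 (ENSDARG00000028625) rose by 0.49 ± 0.12. Of 10 slow muscle genes 3 fell, or 1 without PFAS 11 replicate 2, of which smyhc2 fell by -0.77 ± 0.17, while smyhc1 had a value of 0.19 ± 0.07. Among 23 myogenic factors, chaperones and wasting genes 3 rose (13%) and 2 fell (8.7%), the falls near the 7.52% of all genes tested. The rises were 1 without PFAS 11 replicate 2 or without any of control replicates 1, 2 and 6. MEF2C (ENSDARG00000009418, -0.40 ± 0.08) and MEF2D (-0.34 ± 0.08), of a family known to drive fibre genes, fell. The other MEF2C copy (ENSDARG00000029764) was not called, at 0.02 ± 0.08. The muscle chaperone hsp90aa1.1 rose by 0.54 ± 0.13. MYOD1 and MYOG, the factors that start the fibre programme, were not called, at 0.25 ± 0.13 and 0.34 ± 0.21. Of 15 genes of the nerve-muscle contact, musk alone rose, by 0.59 ± 0.19, and it lost its call in 12 of 19 alternatives, the collection day as a block (adjusted p = 0.0783) and the fits without PFAS 11 replicate 1, 2 or 3 or control replicate 1, 2 or 6 among them (adjusted p from 0.0505 to 0.135 without 1 library).

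Of 12 genes listed for the working heart muscle 2 fell, and the stretch peptides rose. The falls were myl4 and TTN (ENSDARG00000028213, -0.25 ± 0.06). That TTN gene is also given with the fast muscle above, so in whole embryos its fall cannot be assigned to the heart. Of all 26 genes 3 rose and 3 fell. The natriuretic peptide genes nppa and nppb, secreted by strained heart muscle, stood at 37.6, 30.1, 27.2 and 41.7 CPM against 16.3 to 18.6 (median 18.1) and at 5.53, 4.9, 4.84 and 3.88 CPM against 1.15 to 2.75 (median 1.32), or 0.94 ± 0.15 and 1.59 ± 0.31. The myosin light chain myl4 fell by -1.73 ± 0.25, whereas MYL7, myh6 and tnnc1a were not called, at 0.25 ± 0.14, 0.08 ± 0.16 and 0.05 ± 0.20.

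Cartilage and connective tissue genes fell. Of 38 genes of cartilage, notochord and tooth matrix, 11 fell and 2 rose, with a median of -0.19. The rises were 1 without PFAS 11 replicate 2, 3 or 4 or without any control but replicate 5. COL9A1 (ENSDARG00000073699), a collagen on the surface of cartilage fibrils, stood at 26.2, 17.7, 24.4 and 24.4 CPM against 41.4 to 55.6 (median 45.1), or -1.02 ± 0.11 (adjusted p = 9.26e-12). COL10A1 (ENSDARG00000054753), of maturing cartilage and bone, stood at 4.68, 2.97, 5.97 and 9.46 CPM against 17.3 to 31.5 (median 20.9), or -1.99 ± 0.22. The cartilage protein MATN1 stood at 0.426, 0.81, 0.167 and 0 CPM against 2.72 to 9.99 (median 5.3), or -3.9 ± 0.51, near the floor of detection in the exposed libraries. The tooth protein gene enam fell by -2.9 ± 0.45. The cartilage factor SOX9 (ENSDARG00000043923) rose by 0.46 ± 0.09 while its partner SOX6 fell by -0.36 ± 0.07. Of all 57 collagen chains 15 fell and 1 rose, and the most widespread chains fell by little, col1a1a by -0.24 ± 0.05 and COL2A1 (ENSDARG00000011407) by -0.20 ± 0.05.

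Genes of protein synthesis and of the integrated stress response rose. Of 79 cytosolic ribosomal protein genes 73 rose and none fell, by a median of 0.34. The changes were small and even: RPS12 stood at 2970, 3210, 3480 and 3570 CPM against 2210 to 2540 (median 2300), or 0.50 ± 0.06, RPLP1 rose by 0.49 ± 0.06 and RPL10 by 0.35 ± 0.05. Several of these genes have processed copies, so that single values are uncertain. The related gene rps27l rose by 0.83 ± 0.13. Over the list, the exposed libraries lay 0.33, 0.30, 0.39 and 0.38 above the control mean and the controls spread from -0.08 to 0.09.

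Of 53 genes of the integrated stress response, 27 rose and none fell, with a median of 0.42. Of 17 factors 13 rose. CEBPB, which ATF4 switches on, stood at 53.7, 55.2, 73.9 and 62.8 CPM against 11 to 27.1 (median 19.7), or 1.69 ± 0.19 (adjusted p = 7.79e-11). ATF3 stood at 27.9, 29.4, 38.8 and 25.6 CPM against 4.73 to 9.36 (median 7.65), or 2.07 ± 0.25 (adjusted p = 5.8e-10), and sesn2, a brake on the growth kinase mTORC1, at 9.2, 8.68, 14.4 and 10.9 CPM against 1.74 to 4.79 (median 3.19), or 1.7 ± 0.26. DDIT3, the factor also called CHOP, rose by 1.0 ± 0.19, nupr1b by 0.99 ± 0.14, and the 2 copies of ATF4 itself by 0.51 ± 0.09 for atf4a and 0.35 ± 0.08 for atf4b. Of 36 genes of amino acid synthesis, import and charging 14 rose. The alanyl-tRNA synthetase AARS1 rose by 0.80 ± 0.10, the amino acid carriers SLC1A4 and SLC7A3 (ENSDARG00000020645) by 1.06 ± 0.14 and 1.03 ± 0.15, and the serine enzymes PHGDH and PSAT1 by 0.75 ± 0.13 and 0.72 ± 0.16. ASNS, asparagine synthetase, was not called, at 0.58 ± 0.23.

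The chaperones of the endoplasmic reticulum went the other way. Of 28 tested 13 fell and 1 rose, with a median of -0.39. HSPA5, the main chaperone of that compartment, also called BiP, stood at 147, 167, 166 and 171 CPM against 222 to 258 (median 246), or -0.57 ± 0.12 (adjusted p = 0.000151). HSP90B1 fell by -0.66 ± 0.10, DNAJB11 by -0.68 ± 0.10 and calr3b by -0.52 ± 0.08. XBP1, a factor of the unfolded protein response, was the rise, at 0.21 ± 0.06, and was not called without PFAS 11 replicate 3 (adjusted p = 0.083) or in the day-matched pairs (0.0545). Of 40 heat shock genes 3 rose and none fell, a share near the background, with HSPA8 (ENSDARG00000068992) at 0.54 ± 0.09, and the inducible hsp70.3 not called at 0.70 ± 0.39. Of 44 proteasome subunits 2 fell (4.55%, below the 7.52% of all genes tested). The falls were 4 without control replicate 1 or 3 and 4 with the day as a block.

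Of 35 targets of the oxidative stress factor NRF2, 12 rose and none fell. SQSTM1, an autophagy receptor, stood at 18.5, 19.5, 20.2 and 19.3 CPM against 7.57 to 10.3 (median 8.37), or 1.17 ± 0.17 (adjusted p = 9.46e-08), the ferritin fth1a rose by 0.50 ± 0.08, prdx1 by 0.72 ± 0.13 and nfe2l2b by 1.6 ± 0.29. The classical targets HMOX1 and NQO1 were not called, at 0.55 ± 0.21 and 0.36 ± 0.17. Of 34 immediate early genes 14 rose and 2 fell. FOS stood at 48.4, 24.4, 25.3 and 10.3 CPM against 4.15 to 9.47 (median 5.29), or 2.1 ± 0.39 (adjusted p = 2.6e-05), BTG2 rose by 0.87 ± 0.10 and DUSP6, a target of growth factor signals, by 0.73 ± 0.08, while both NR4A2 copies fell, by -0.79 ± 0.17 and -0.65 ± 0.15. Over the immediate early list, replicates 1 to 4 lay 0.65, 0.36, 0.65 and 0.17 above the control mean, so that they differed among themselves more than in the Notch or ribosome lists.

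Among metabolic genes, the glucose, fasting and fatty acid lists held both rises and falls. Of 35 glycolysis genes 8 fell and 3 rose. The falls included PKM (ENSDARG00000099860, -0.81 ± 0.09), LDHA (-0.78 ± 0.09) and eno2 (-0.61 ± 0.09), which muscle or neurons also use, and 2 of the 3 rises were the SLC16A9 carriers, which are not glycolytic enzymes. Of 35 hypoxia response genes 6 rose and 1 fell. PFKFB3, which speeds glycolysis, stood at 6.3, 4.44, 6.31 and 7.56 CPM against 2.19 to 4.15 (median 2.77), or 1.11 ± 0.22 (adjusted p = 6.84e-05), and PDK2 (ENSDARG00000020876) and VEGFA (ENSDARG00000103542) rose by 0.87 ± 0.17 and 0.64 ± 0.14. Of 33 fasting and glucocorticoid genes 8 rose and 4 fell, or 2 fell without PFAS 11 replicate 2 or 4. PCK1, the entry enzyme of gluconeogenesis, stood at 12, 17.3, 23 and 15.8 CPM against 2.95 to 10.4 (median 4.79), or 1.66 ± 0.27 (adjusted p = 2.68e-06), GADD45B (ENSDARG00000027744) rose by 1.1 ± 0.20 and sgk1 by 0.77 ± 0.14, while the muscle enzyme FBP2 fell by -0.91 ± 0.11.

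Of 56 genes of fatty acid use 7 rose (12.5%) and 4 fell (7.14%), the falls near the 7.52% of all genes tested. The rises were 4 without PFAS 11 replicate 2, and the falls 2 without PFAS 11 replicate 4, control replicate 1 or control replicate 6. UCP1 stood at 37.9, 55.2, 43.8 and 34.4 CPM against 5.17 to 16.8 (median 14.2), or 1.71 ± 0.21 (adjusted p = 8.49e-10), and cpt1ab, which admits fatty acids to mitochondria, rose by 0.68 ± 0.13. Of 36 genes of sterol synthesis and its control 3 rose (8.33%) and 2 fell (5.56%). These shares are near the 6.58% and 7.52% of all genes tested. The cholesterol exporters ABCA1 (0.54 ± 0.09) and abca1b (0.47 ± 0.13) were higher and ELOVL6 (-0.48 ± 0.10) lower. Of 96 respiratory chain genes 19 fell and none rose, by a median of -0.14, and 12 fell without PFAS 11 replicate 2. The falls were spread over 6 of 34 genes of complex I, 9 of 49 nuclear genes of complexes II to V and 4 of 13 genes of the mitochondrial genome. They were mostly small, with MT-ATP6 at -0.43 ± 0.07 and cox6b1 at -0.80 ± 0.14.

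The subunits of the sodium pump moved in both directions. Of 18 genes 8 fell and 6 rose. The neuronal alpha subunit atp1a3a stood at 91.9, 87, 117 and 104 CPM against 170 to 223 (median 182), or -0.91 ± 0.07 (adjusted p = 4.8e-16), and the beta subunit ATP1B2 (ENSDARG00000099203), also of neurons and glia, fell by -0.60 ± 0.07. In contrast, the alpha subunit genes atp1a1a.2 and atp1a1a.4, of a cluster known from skin ionocytes and kidney, rose by 0.76 ± 0.09 and 0.63 ± 0.08, and ATP1B1 (ENSDARG00000076833) by 0.83 ± 0.11. The falls were 5 without PFAS 11 replicate 1. Of 33 ionocyte genes 8 rose and 3 fell, and these rises were 5 without PFAS 11 replicate 4, 5 without control replicate 1 and 5 in the fit blocked by collection day. The rises included the potassium channel KCNJ1 (ENSDARG00000090866, 1.16 ± 0.25), the sodium chloride carrier slc12a10.2 (1.2 ± 0.31) and the ammonia channel RHCG (ENSDARG00000003203, 2.59 ± 0.64). The 3 falls are not named here. The mean of the ionocyte list lay 0.31, 0.23, 0.2 and 0.11 from control in the exposed libraries. In the controls it ran from -0.26 to 0.18, so the groups overlapped.

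In other tissues, epidermal and endothelial genes held more rises than falls. Of 35 epidermal genes 13 rose and 3 fell, against 5 falls in the day-matched pairs. The simple keratins krt8 (0.57 ± 0.06) and krt18a.1 (0.69 ± 0.09), the claudin cldne (0.93 ± 0.11) and krt17 (1.21 ± 0.15) rose, and krt1-19d (-1.83 ± 0.26), krt15 (-1.12 ± 0.17) and krt1-c5 (-0.90 ± 0.24) fell. Of 49 endothelial genes 11 rose and 3 fell, with the scavenger receptors stab1 (0.79 ± 0.17) and stab2 (0.94 ± 0.19) and the junction gene CLDN5 (ENSDARG00000043716, 0.58 ± 0.13) among the rises, and cdh5, a defining vessel gene, not called at 0.21 ± 0.10. Of 28 red cell genes edgeR called none, against 3 higher and 2 lower at an unadjusted p under 0.05 and 0 higher and 0 lower called by DESeq2. Without control replicate 5, 1 red cell gene fell, and without control replicate 2, 1 rose. The mean of the list lay 0.02, 0.12, -0.02 and 0.29 from control in the exposed libraries and -0.45 to 0.36 in the controls. In 4 day-matched pairs with the day as a block, 1 red cell gene rose and 3 fell.

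Of 38 white cell genes 5 rose and none fell, against 9 and 1 in the day-matched pairs. The 5 were both SOCS3 copies, gbp1 (1.56 ± 0.25), isg15 (4.88 ± 0.90) and irg1l (1.76 ± 0.46), which interferon or infection is known to induce. The macrophage and neutrophil markers csf1ra, lyz and LCP1 were not called, at 1.04 ± 0.74, -0.32 ± 0.13 and 0.81 ± 0.98. The standard errors of csf1ra and LCP1 leave room for a change of either sign. The mean of the white cell list lay 0.57, 0.53, 0.75 and 0.22 from control in the exposed libraries and -0.33 to 0.28 in the controls. The liver list had 6 rises and 2 falls of 31, with the complement genes c9 (0.72 ± 0.17) and c3a.1 (0.69 ± 0.17) higher. Of 44 xenobiotic genes 6 rose and 1 fell, led by the efflux pump abcb5 (0.67 ± 0.08) and by CYP1B1 (1.15 ± 0.18), and CYP1A1, the usual dioxin target, was not called at 1.2 ± 0.46. Without control replicate 5 the liver and xenobiotic rises were 3 each and 4 liver genes fell, and in the day-matched pairs 6 liver genes fell. Of 24 pigment cell genes 3 rose, against 6 in the day-matched pairs, and 1 fell, and of 16 exocrine pancreas genes 1 rose and 1 fell, near the background.

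Of 16 genes of myelin and glia 3 rose and 3 fell. The myelin gene mbpa had no count in any exposed library and 0 to 16 counts in single controls, 50 in all. Against a floor of 3 counts over the exposed group, it was at least 10.2-fold lower, a bound that covers counting error only. Of 34 clock genes 4 rose and 1 fell, with the repressor BHLHE40 at 0.89 ± 0.11 and rorab at -0.97 ± 0.13.

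The nearest relative in structure is PFAS 10, with the same sulfonamide group on a longer chain. The groups were exposed at 28 µM and 8 µM, each the study's own effect concentration, so values are set side by side and a difference cannot be assigned to the chemical or to the dose. Between them 1731 genes differed, 7.89% of those tested, of which 784 (3.58%) were higher in PFAS 11 and 947 (4.32%) lower. With the most abundant gene left out, 899 were higher and 836 lower, so which direction held more genes is not settled. The libraries of both groups did not overlap in 2331 genes (10.6%). Fitted on these 8 libraries alone, 1147 differed. The 2 groups share their controls, so their changes are not independent.

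The 5 largest differences below PFAS 10 were all heat shock genes. HSPA2, a chaperone of the HSP70 family, stood at 1.02, 0.926, 1.63 and 1.71 CPM in PFAS 11, 233, 31.4, 9.14 and 18.3 in PFAS 10 and 1.56 to 3.42 (median 2.55) in the controls, a difference between the chemicals of -5.81 ± 0.55 (adjusted p = 1.62e-12). The inducible chaperone hsp70l stood at 1.58, 0.887, 1.75 and 1.51 against 179, 34.2, 9.14 and 18.7 CPM, or -5.4 ± 0.58, and HSP90AA1 differed by -3.87 ± 0.31, hsp70.1 by -5.26 ± 0.73 and hsp70.3 by -4.99 ± 0.42. In these 5 genes the PFAS 11 libraries overlapped the controls and none was called against them, while all 4 PFAS 10 libraries lay above both. PFAS 10 replicate 1 was the highest, and without it the difference of HSPA2 was -3.9. Of the 40 heat shock genes 11 were lower in PFAS 11 than in PFAS 10 and 1 was higher.

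On the other side, si:dkey-7c18.24 stood at 24.4, 11.6, 10.4 and 13.8 CPM in PFAS 11 and 1.12, 0.682, 2.1 and 0.915 in PFAS 10, or 3.62 ± 0.46. The interferon-inducible genes gbp1 (1.77 ± 0.29) and ifi27.1 (1.64 ± 0.26), the cytokine receptor il20ra (1.52 ± 0.37) and rbp4l (2.0 ± 0.19) were the other largest differences. Cell division genes had a median of 0.43 in PFAS 11 and -0.17 in PFAS 10 against control, and 42 of 64 were higher in PFAS 11 with none lower. The rise was not particular to PFAS 11, since the median in PFAS 13 was 0.63. Set against PFAS 13, 6 of the 64 were lower in PFAS 11 and 0 were higher. For CCND1 the difference was 0.36 ± 0.07, and for mki67 0.55 ± 0.07. Proteasome genes were higher in PFAS 11 than in PFAS 10 in 25 of 44. Their medians against control were -0.12 in PFAS 11, -0.46 in PFAS 10 and -0.02 in PFAS 13. Genes of glucose use were lower in 27 of 70, muscle energy genes in 14 of 19, fast muscle genes in 24 of 42, presynaptic genes in 27 of 81 and stress response genes in 17 of 53. The muscle and synapse lists lay further below control in PFAS 11, with medians of -0.50 against -0.03 for muscle energy and -0.56 against -0.24 for the synapse.

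Of the 2 largest of the 15 falls against control, igfn1.3 lay lower in PFAS 11 than in PFAS 10, by -2.33 ± 0.24 (adjusted p = 1.42e-11). For GNB3 the difference was -0.08 ± 0.27 (adjusted p = 0.922), with a 95% interval of -0.60 to 0.44 that leaves room for a difference of either sign. Of 79 ribosomal genes 1 was higher in PFAS 11, and of 28 endoplasmic reticulum genes 1 was higher and 2 were lower. Their medians against control were 0.34 and 0.30 for the ribosome and -0.39 and -0.35 for the endoplasmic reticulum, in PFAS 11 and PFAS 10.

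PFAS 13, the diol, carries no sulfonamide group and was given at 25 µM. Between it and PFAS 11, 874 genes differed, 3.99% of those tested, 502 (2.29%) of them higher in PFAS 11 and 372 (1.7%) lower, and the libraries did not overlap in 1951 genes (8.9%). Of 46 crystallin genes 32 were higher in PFAS 11 and none lower. The list median against control was -0.56 in PFAS 11 and -1.49 in PFAS 13. The copies crygm2d15, crygm2d14 and crygm2d20 were among the 5 largest differences, and crygm2d14 stood at 155, 65.9, 82.4 and 123 CPM in PFAS 11, 23, 22, 16.8 and 15.3 in PFAS 13 and 168 to 273 (median 202) in the controls, or 2.46 ± 0.17 (adjusted p = 9.95e-20). SLC16A9 (ENSDARG00000013926) differed by 2.54 ± 0.30 and the ependymin-like gene epdl2 by 2.32 ± 0.29.

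Photoreceptor genes were higher in PFAS 11 in 8 of 45 and lower in 1, and clock genes higher in 10 of 34, with list medians of 0.08 in PFAS 11 and -0.41 in PFAS 13. In the other direction, 12 of 53 stress response genes and 14 of 70 genes of glucose use were lower in PFAS 11. The largest differences downward were RAB43 (-2.59 ± 0.21), SEC22B (ENSDARG00000030108, -2.11 ± 0.16), the small nucleolar RNA SNORD14 (ENSDARG00000082008, -2.05 ± 0.47), MATCAP1 (-1.88 ± 0.27) and PYGL (-1.86 ± 0.27), the liver glycogen phosphorylase, which stood at 5.02, 4.78, 7.1 and 5.85 CPM in PFAS 11, 25.4, 16.5, 22.7 and 17.7 in PFAS 13 and 3.39 to 19.8 (median 14.1) in the controls. Of 81 presynaptic genes 2 were higher and 1 was lower, and of 55 Notch genes 5 were higher. For SYT1 the difference was -0.22 ± 0.09, with a 95% interval of -0.40 to -0.05 and an adjusted p of 0.166, and for her4.1 it was 0.46 ± 0.14 (adjusted p = 0.0429), which was not called without PFAS 11 replicate 3 or 4 or PFAS 13 replicate 1, 2 or 3. The stress response list had medians against control of 0.42 in PFAS 11, 0.74 in PFAS 10 and 0.61 in PFAS 13, the lowest of the 3 chemicals in PFAS 11. In the plot of list medians the synapse and Notch lists of PFAS 11 lie nearer to PFAS 13 than to PFAS 10.

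**Figure D5:**
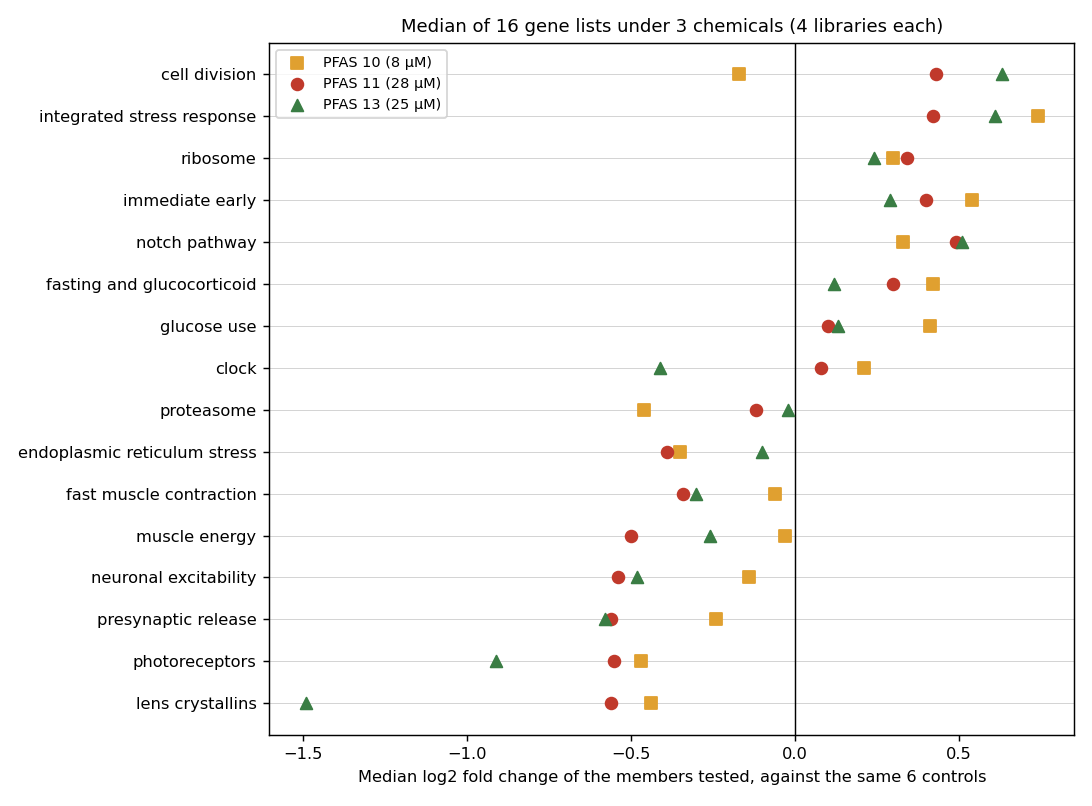
Median log2 fold change of the tested members of 16 gene lists against the same 6 controls, for PFAS 10 (8 µM, squares), PFAS 11 (28 µM, circles) and PFAS 13 (25 µM, triangles), 4 libraries each and doses unequal. Cell division lies at 0.43 in PFAS 11 and -0.17 in PFAS 10, and lens crystallins lie at -0.56 in PFAS 11 and -1.49 in PFAS 13.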

How the data were processed

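Per the study's methods and the submitters' processing notes, single-end reads of 3′ mRNA libraries were aligned by the authors to GRCz11 with STAR and counted per gene and strand with HTSeq. The deposited values are raw counts of reads per gene, 1 column per library and sequencing run, and the runs 64 and 66 of each library were summed here. The authors' tables of fold changes, p-values and enrichment terms, and the count table from which they removed genes of low counts, were not used. Expression in 69 libraries was fitted in 1 model with edgeR 4.0.16 (R 4.3.3, limma 3.58.1), TMM scaling and filterByExpr (minimum count 10, minimum total 15); PFAS 5 replicate 1 was left out, as in the study. The quasi-likelihood test gave PFAS 11 against Control-A and 2 direct comparisons, each adjusted over 21928 genes, with 95% intervals of 1.96 standard errors. Summaries and figures were made with Python 3.11.15, pandas 2.3.3 and matplotlib 3.10.9.

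The members and the 43 gene lists were chosen with earlier results of these data known, so the lists' counts are a description and no list was given a test. Of 1788 listed names 96.4% matched a gene. Named genes were the 15 largest rises and falls among called genes with a symbol, a mean log2 CPM over 1 and no overlap between groups, the 4 members of smallest p in each list, and the 5 largest differences in each direction of each direct comparison; some of these are not reported here, and other members were added to account for their lists, some after their values were seen. Genes of a shared sequence, or overlapping on 1 strand, are uncertain one by one. Replicates are separate pools of embryos collected on different days.

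The collection day of each pool comes from the study's supplement and, unlike the replicate number, is shared by each PFAS 11 library and 1 control. Deviations from the group means correlated by 0.007 to 0.126 in the 4 same-day pairs and by -0.073 to 0.079 in other pairs, over 12875 genes, so the day was used as a block only in alternatives. DESeq2 1.42.0, RLE size factors, no filter, the most abundant gene left out, single runs, only the groups compared and leaving out each library were the other alternatives. The test was tried on simulated counts with seeded changes before use.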

Additional observations from a re-analysis of the deposited data

Results flagged for a closer look

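In 94 groups of libraries, over 47 genes named in the text, 3 libraries stood far from the rest of their group by Dixon's criterion. By chance this criterion marks about 1 group in 20, so the flags are no more frequent than chance would give. UCP1 stood at 5.17 CPM in control replicate 5 and between 11.9 and 16.8 CPM in the other 5 controls. PYGL stood at 3.39 CPM in the same control library and between 11.4 and 19.8 CPM in the others. The NMDA receptor gene grin2ab stood at 0.657 CPM in PFAS 11 replicate 4 and between 1.66 and 1.83 CPM in the other 3 exposed libraries.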

How the results depend on the processing

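The count of PFAS 11 calls, 3091, was 3417 with DESeq2, 3092 with RLE size factors, 3082 without the most abundant gene, 2884 without the filter, 2940 in the 2 groups alone, 2490 and 2413 in run 64 or run 66 alone, and 2488 to 2980 without any 1 library. With the collection day as a replicate block it was 3029, and in the day-matched pairs with that block 2919. The sum of calls over the lists, 616, ran from 532 to 652, with 627 and 647 under the block, and from 544 to 611 without any 1 library. Against PFAS 10 the count of 1731 was 1147 in the 2 groups alone, 1800 with the block and 1187 to 1670 without any 1 library, lowest without PFAS 10 replicate 1. Against PFAS 13 the count of 874 was 646 in the 2 groups alone, 970 with the block and 651 to 764 without any 1 library. All 570 values of the 15 rises and 15 falls under the 19 alternatives kept their sign and call. These genes were selected from the same libraries as large called changes without overlap. Their selection made this outcome likely, so it is no independent support. Over the genes that the rule selects and the other called genes given in the text, 280 results with 5199 values, none turned and 99 lost the call, in 26 genes. The block ended the calls of trim63a, MYBPC1, CYP26A1 and musk, and the day-matched pairs those of scn4ab, OPN1SW, XBP1, musk, abcc2 and CYP2R1. List counts moved over 1.5 times in 112 cases over 39 of the counts, mostly counts of 1 to 3, beside those given with the results. Among the small counts, 1 vessel gene fell instead of 3 without PFAS 11 replicate 2 or 4, 1 sterol gene instead of 2 without replicate 2, 2 clock genes instead of 1 without replicate 1, and no pancreas gene rose without replicate 3. In run 66 alone 7 vessel genes rose instead of 11. No scaling moved the median of all genes by over 0.1. Low counts, as for MATN1 or GNGT2, limit the precision of large folds, and the cause of these shifts was not tested.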
